A study of Rattus norvegicus with 4 samples.

Results

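The surface antigens by which mesenchymal stem cells (MSCs) are recognised were followed in rat colon after MSC transplantation. Of the 10 listed genes, Thy1, Nt5e, Eng, Cd44, Itgb1, Vcam1, Alcam and Pdgfrb code for antigens that these cells carry, and Cd34 and Ptprc for antigens that they lack. Members were chosen by name, through the RefSeq accession of each row, with 1 row per gene and a value on all 4 arrays. This gave 8 measured genes of the 10, among 7062 named rows and 18350 measured rows of 26420 in all. Each of the 8 has 1 row. No row was matched to Cd34 or Ptprc, which were not analysed here, so all 8 measured genes belong to the antigens carried by MSCs.

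Total RNA of colon tissue from 4 male rats was hybridized to one-color NimbleGen arrays, with 1 array per rat. In the MSCT group, 2 Sprague Dawley rats with inflammatory bowel disease (IBD), induced by TNBS in ethanol, received commercial MSCs that carried a GFP reporter, by tail vein. The control group was 2 rats without MSC transplantation, which the sample descriptions call normal and the series text calls IBD control rats. The labels give no day for the arrays. The RNA is that of whole tissue, so RNA of the transplanted cells and of the host's own cells was measured together, and no GFP probe was used here to separate them.

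MSCs are stromal cells that adhere to plastic and can form bone, fat and cartilage cells in culture. They are defined by a panel of antigens and not by a single one: CD90, CD73 and CD105 are required to be present, and CD34 and CD45, the antigens of hematopoietic progenitors and of leukocytes, are required to be absent. None of the carried antigens is particular to MSCs. In the colon, fibroblasts, pericytes, endothelium, muscle and leukocytes express several of them. In tissue RNA, fewer cells of a type and less RNA per cell cannot be told apart.

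The proximal promoters of 4 genes are shown, Cd44 and Eng because their intensity was higher in the MSCT group, Vcam1 because it was not, and Icam1 because the study stained its product, CD54, together with CD44 on the cultured MSCs. Each is the stretch of 250 bases before the RefSeq transcript start (GRCr8), 5′ to 3′ on the gene's own strand, and capitals mark the motif matches described after them. Cd44 lies at chr3:109699425-109699674, minus strand. Eng lies at chr3:36332029-36332278, plus strand. Vcam1 lies at chr2:206742784-206743033, minus strand. Icam1 lies at chr8:27829595-27829844, plus strand. The stretches of Cd44 and, in part, of Eng lie inside the span of the gene, since another transcript of it starts further upstream.
Cd44: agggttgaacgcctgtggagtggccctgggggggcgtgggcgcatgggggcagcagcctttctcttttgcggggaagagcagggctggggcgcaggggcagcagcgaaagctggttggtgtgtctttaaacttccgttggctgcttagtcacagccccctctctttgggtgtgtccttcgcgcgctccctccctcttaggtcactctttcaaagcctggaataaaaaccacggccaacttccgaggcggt
Eng: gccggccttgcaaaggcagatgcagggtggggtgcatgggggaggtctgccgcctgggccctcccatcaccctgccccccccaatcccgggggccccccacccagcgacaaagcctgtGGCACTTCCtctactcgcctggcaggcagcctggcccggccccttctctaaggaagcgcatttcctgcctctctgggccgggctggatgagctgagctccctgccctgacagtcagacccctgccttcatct
Vcam1: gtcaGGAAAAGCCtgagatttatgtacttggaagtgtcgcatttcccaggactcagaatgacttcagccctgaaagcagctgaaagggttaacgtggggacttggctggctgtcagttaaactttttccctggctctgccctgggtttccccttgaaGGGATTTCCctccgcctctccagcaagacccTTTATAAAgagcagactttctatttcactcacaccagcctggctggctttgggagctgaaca
Icam1: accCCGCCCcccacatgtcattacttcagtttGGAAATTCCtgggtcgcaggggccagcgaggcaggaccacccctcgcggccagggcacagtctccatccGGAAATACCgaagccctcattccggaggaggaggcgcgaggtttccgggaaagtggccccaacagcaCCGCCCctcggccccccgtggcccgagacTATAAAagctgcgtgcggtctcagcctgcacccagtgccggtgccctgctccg

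Motifs were searched on both strands. They were a short form of the site bound by NF-kappaB, spelled GGNNNTTCC, the TATA box, spelled TATAAA, the GC box, spelled GGGCGG, and the AP-1 site, spelled TGANTCA. The Vcam1 stretch holds 2 kappaB-like matches, 1 of them (GGGATTTCC) starting 93 bases before the transcript start and the other (GGAAAAGCC) on the opposite strand 246 bases before it, and a pair of overlapping TATA matches at 62 and 60 bases. The Icam1 stretch also holds 2 kappaB-like matches, the first (GGAAATTCC) at 218 bases, which reads as a match on both strands, and the other (GGAAATACC) at 149 bases, with a TATA box at 53 bases and GC boxes at 247 and 82 bases. The Eng stretch holds 1 (GGCACTTCC), which starts 132 bases before, and no TATA box. The Cd44 stretch holds none of the 4 motifs. Among 33469 rat promoters of this length, 15.4% hold the kappaB-like letters, 12.9% a TATA box, 30.5% a GC box and 6.34% an AP-1 site. GC content was 60.8% for Cd44, 68% for Eng, 50.4% for Vcam1 and 66% for Icam1. These matches are a description of the letters, and binding was not measured here.

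Intensities were compared as log2 values with limma, which fits a linear model to each row and draws the rows' variances towards a common value. Differences are MSCT minus control on the log2 scale, so that 1 is a doubling. The study's screen was an unadjusted p under 0.05 with a fold change over 2. The smallest two-sided p that an exact permutation of 2 arrays against 2 allows is 0.333. The p-values below therefore depend on the variance borrowed from other rows, and with so few arrays every value is imprecise. Array medians were 848 to 893, within 0.07 of each other on the log2 scale. Because probes differ in brightness, no gene's level is set against another gene's. Replicate SD depended on brightness, and its median fell from 0.47 among dim rows (the lowest 25% by mean intensity) to 0.14 among bright ones (the highest 25%).

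Of the 8 measured antigens, 5 were higher and 3 lower in the MSCT group, with a median difference of 0.14, against -0.019 over all rows. Endoglin (Eng, CD105) and the hyaluronan receptor Cd44 had an unadjusted p under 0.05, both with higher intensity in the MSCT group. That is 2 of 8, where 12.0% of all rows had such a p in either direction, 4.80% higher and 7.17% lower. No member passed the screen, which 4.63% of all rows passed, 2.12% higher and 2.51% lower. No member, and 0.00% of all rows, had an adjusted p under 0.05 by limma, and none had by the methods' t-test, which left 1 member with an unadjusted p under 0.05. The control and MSCT arrays did not overlap for 5 of the 8, 4 higher and 1 lower, where they did not overlap in 45.8% of all rows. The count of members with an unadjusted p under 0.05 was also 1 with a variance that depends on intensity, without control replicate 1 and without MSCT replicate 2, and 0 without the dimmest 50% of rows, which left 3 members. It was 3 after quantile normalization, with equal array medians and without the dimmest 25% of rows, where Pdgfrb joined.

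**Figure D1:**
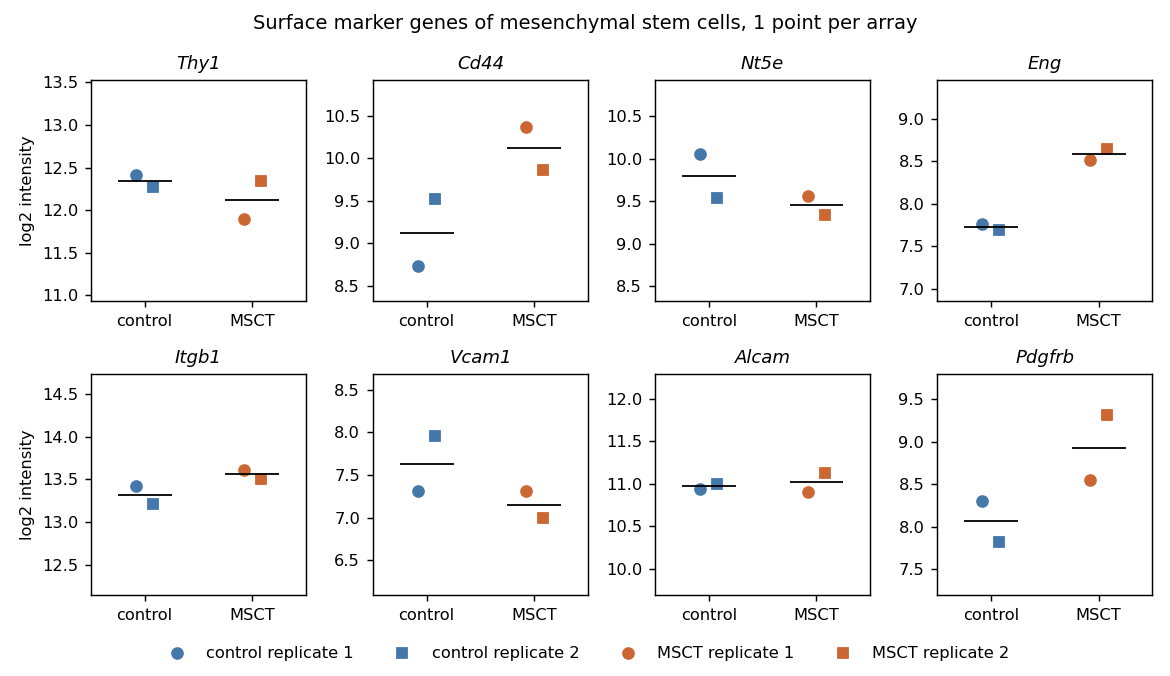
Log2 intensity of the 8 measured antigen genes on each of the 4 arrays (points, control and MSCT), with the mean of the 2 arrays of a group as a line. The MSCT points lie above the control points for Eng, Cd44, Pdgfrb and Itgb1, and levels are to be compared within a gene only.

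Of the 3 antigens that define MSCs, endoglin was the one with higher intensity in the MSCT group. Endoglin is a co-receptor for ligands of the TGF-beta family and is abundant on endothelium as well as on MSCs. Its row (NM_001010968, chromosome 3, 36332190 to 36370324, GRCr8) read 217 in control replicate 1 and 208 in control replicate 2, against 366 in MSCT replicate 1 and 401 in MSCT replicate 2. Both MSCT arrays were above both control arrays, and the gap of 0.76 between the groups was wider than the distance of 0.062 between the control arrays or of 0.13 between the MSCT arrays. On the log2 scale this is 7.73 ± 0.044 for control and 8.58 ± 0.093 for MSCT (SD, n = 2 each). The difference was 0.85 (SE 0.19, 95% interval 0.35 to 1.35), a rise of 1.81-fold, with unadjusted p = 0.00797 and adjusted p = 0.298 by limma. With a variance that depends on intensity the SE was 0.42. Leaving out 1 array at a time gave differences of 0.79 to 0.92, a narrower range than that of Cd44. The Eng row lay just above the dimmest 25%, with 74.8% of all rows brighter. Among rows between the dimmest 25% and the dimmest 50%, the median replicate SD was 0.31, larger than both SDs of Eng. Whether so small a spread would hold in more rats was not tested. The unadjusted p was above 0.05 without MSCT replicate 2 (0.0594) and with a variance that depends on intensity (0.0681).

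CD90 and CD73 gave no such difference. Thy1 codes for CD90, a small protein anchored to the membrane by a lipid, which is found on fibroblasts, neurons and, in the rat, on some leukocytes. Its row (NM_012673, chromosome 8, 53286396 to 53291541) read 5459 and 4952 in control replicates 1 and 2, against 3810 and 5196 in MSCT replicates 1 and 2. MSCT replicate 2 lay between the control arrays and MSCT replicate 1 below them. The difference was -0.22 (SE 0.24, 95% interval -0.86 to 0.41), with unadjusted p = 0.396 and adjusted p = 0.730 by limma. Without MSCT replicate 1 it was -0.00099.

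Nt5e codes for CD73, the enzyme that makes adenosine from AMP outside the cell. Its row (NM_021576, chromosome 8, 98150925 to 98195646) read 1065 and 743 in control replicates 1 and 2, against 757 and 649.7 in MSCT replicates 1 and 2. MSCT replicate 1 was just above control replicate 2, so the groups overlap, and control replicate 1 was the brightest array. The difference was -0.34 (SE 0.26, 95% interval -1.04 to 0.35), with unadjusted p = 0.253 and adjusted p = 0.631 by limma. The intervals of Thy1 and Nt5e reach down to a change of -0.86 and -1.04 and up to 0.41 and 0.35, so a rise as large as the 0.85 of Eng lies outside both. The differences between genes were not tested.

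**Figure D2:**
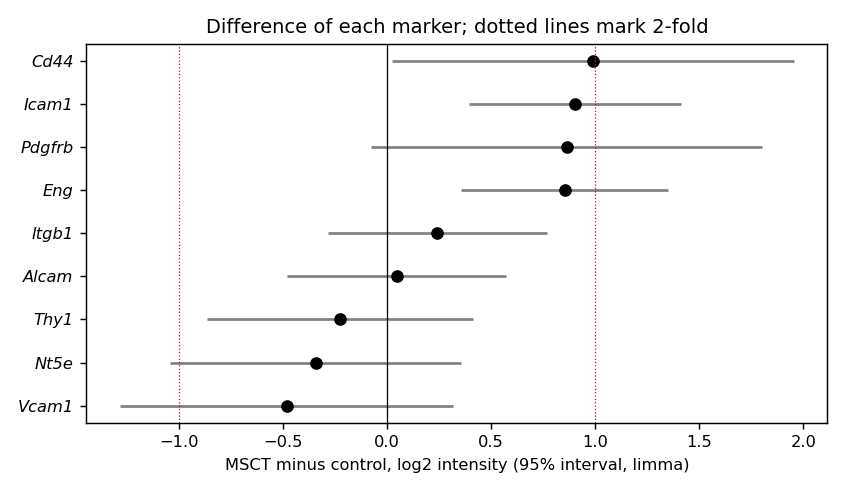
Difference in log2 intensity, MSCT minus control, for each of the 8 measured antigen genes and for Icam1 (points), with its 95% interval from limma (bars). The intervals of Eng (0.35 to 1.35), Cd44 (0.025 to 1.95) and Icam1 (0.39 to 1.41) lie above 0, and those of the other 6 genes include 0.

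Cd44 had the largest difference of the 8 members. CD44 is the main receptor for the matrix polymer hyaluronan. It is carried by MSCs, leukocytes and the epithelial cells at the crypt base, and it is the antigen of this list that the study stained on its cultured MSCs. The row (NM_012924, chromosome 3, 109610824 to 109699776) read 425 and 734 in control replicates 1 and 2, against 1320 and 932 in MSCT replicates 1 and 2. Both MSCT arrays were above both control arrays, but the control arrays were 0.79 apart on the log2 scale and the groups 0.34. On the log2 scale this is 9.13 ± 0.56 for control and 10.11 ± 0.36 for MSCT (SD, n = 2 each). The difference was 0.99 (SE 0.36, 95% interval 0.025 to 1.95), or 1.99-fold, with unadjusted p = 0.0463 and adjusted p = 0.412 by limma, and it missed the 2-fold limit of the screen.

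The call for Cd44 depended on single arrays. Without control replicate 1, the dimmest array for this gene, the difference was 0.60 (unadjusted p = 0.156), and without MSCT replicate 1 it was 0.74 (unadjusted p = 0.168). Without control replicate 2 it was 1.38 (unadjusted p = 0.0200) and without MSCT replicate 2 1.24 (unadjusted p = 0.0448), both past the screen. After quantile normalization or with equal array medians it was 1.01 and 1.03, which also passed the screen.

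**Figure D3:**
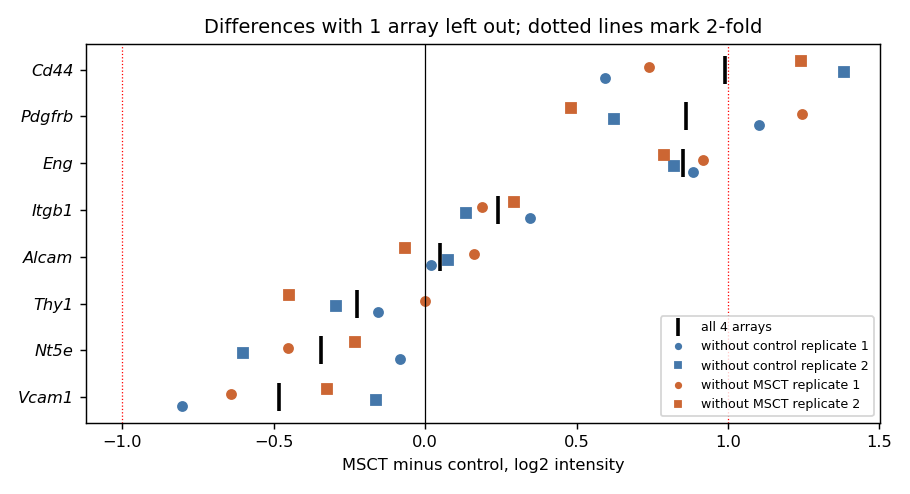
Difference in log2 intensity, MSCT minus control, of each measured antigen gene with all 4 arrays and with each array left out in turn. Eng stays between 0.79 and 0.92, whereas Cd44 ranges from 0.60 to 1.38 and Pdgfrb from 0.48 to 1.25.

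None of the other adhesion receptors had an unadjusted p under 0.05. Itgb1 codes for the integrin subunit beta 1 (CD29), which pairs with many alpha subunits to bind collagen, laminin and fibronectin and is present on nearly all cells that touch matrix. Its row (NM_017022, chromosome 19, 73602277 to 73650271) read 11014 and 9515 in control replicates 1 and 2, against 12553 and 11655 in MSCT replicates 1 and 2. The MSCT arrays were the brighter ones by a margin of 0.082, less than the 0.21 between the control arrays. The difference was 0.24 (SE 0.20, 95% interval -0.28 to 0.77), with unadjusted p = 0.283 and adjusted p = 0.652 by limma.

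Alcam codes for CD166, an adhesion molecule that binds CD6 and itself and is carried by MSCs, neurons and epithelial stem cells. The row (NM_031753, chromosome 11, 61804932 to 62005250) read 1965 and 2045 in control replicates 1 and 2, against 1914 and 2244 in MSCT replicates 1 and 2. MSCT replicate 1 was the lowest array and MSCT replicate 2 the highest, with both control arrays between them. The difference was 0.048 (SE 0.20, 95% interval -0.48 to 0.57), with unadjusted p = 0.819 and adjusted p = 0.940 by limma, and it turned to -0.067 without MSCT replicate 2.

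Vcam1 codes for CD106, which binds the integrin alpha 4 beta 1 of leukocytes and is carried by MSCs of the bone marrow and by inflamed endothelium. Its row was among the dimmest 25%, where the spread between replicates is widest. The row (NM_012889, chromosome 2, 206723050 to 206742783) read 159 and 248 in control replicates 1 and 2, against 159 and 127 in MSCT replicates 1 and 2. Control replicate 1 and MSCT replicate 1 both read 159 and were 0.002 apart on the log2 scale, so that the groups were apart by that amount alone. The difference was -0.48 (SE 0.30, 95% interval -1.28 to 0.32), with unadjusted p = 0.176 and adjusted p = 0.573 by limma. Leaving out 1 array gave -0.80 to -0.16.

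Pdgfrb, the receptor for PDGF-B and PDGF-D (CD140b), marks pericytes and many fibroblasts and is carried by MSCs. Its row (NM_031525, chromosome 18, 56770348 to 56809228) read 317 and 227 in control replicates 1 and 2, against 374 and 635 in MSCT replicates 1 and 2. The MSCT arrays lay above the control arrays, by 0.24 at the nearest, while the MSCT arrays were 0.76 apart. On the log2 scale this is 8.07 ± 0.34 for control and 8.93 ± 0.54 for MSCT (SD, n = 2 each). The difference was 0.86 (SE 0.35, 95% interval -0.076 to 1.80), or 1.82-fold, about the size of that of Eng but with a wider interval, and the p was above 0.05 (unadjusted p = 0.0639 and adjusted p = 0.444 by limma). Without MSCT replicate 1 it was past the screen at 1.25 (unadjusted p = 0.0235) and without MSCT replicate 2 0.48 (unadjusted p = 0.256). Quantile normalization gave 0.93 (unadjusted p = 0.0454).

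Beyond the 10 genes, 27 other antigens reported on MSCs and 24 that MSCs should lack were listed. Of the carried antigens, 19 were measured, 8 higher and 11 lower. The median difference was -0.0054, and its sign turned with equal array medians (0.033), without control replicate 1 (0.20) and without MSCT replicate 2 (0.0085). An unadjusted p under 0.05 was given to 3 higher and 2 lower, and 1 in each direction passed the screen. That is 5 of 19 with such a p, where 12.0% of all rows had one and 4.63% passed the screen. By the methods' t-test 2 higher and 1 lower had such a p, and 0 passed the screen. Icam1 codes for CD54, a ligand of leukocyte integrins that the study stained on its MSCs. Its row (NM_012967) read 305 and 276 in control replicates 1 and 2, against 519 and 566 in MSCT replicates 1 and 2, with both MSCT arrays above both control arrays. Its difference was 0.90 (SE 0.19, unadjusted p = 0.00705, adjusted p = 0.291 by limma), and the unadjusted p was above 0.05 without MSCT replicate 2 (0.0512). The 2 antigens stained on the cultured cells, Cd44 and Icam1, were both higher in the colon of the MSCT group, neither with an adjusted p under 0.05. The part of transplanted cells in their intensity was not tested.

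Cxcr4, the receptor for the chemokine CXCL12, read 299 and 219 in control replicates 1 and 2, against 468 and 605 in MSCT replicates 1 and 2. Its MSCT arrays were the higher ones, with a difference of 1.06 (SE 0.27, unadjusted p = 0.0133, adjusted p = 0.324 by limma). Ngfr (CD271), the low-affinity receptor for neurotrophins, which marks MSCs of the bone marrow and also enteric glia, read 532 and 912 in control replicates 1 and 2, against 243 and 408 in MSCT replicates 1 and 2. The MSCT arrays were here the lower ones, with a difference of -1.15 (SE 0.40, unadjusted p = 0.0417, adjusted p = 0.400 by limma). Dpp4 (CD26), a peptidase of fibroblasts, T cells and epithelium, was also lower, with a difference of -0.94 (SE 0.23, unadjusted p = 0.0114, adjusted p = 0.319 by limma) and an unadjusted p of 0.0526 without MSCT replicate 2. Without control replicate 2 the differences of Cxcr4 and Ngfr were 0.83 (unadjusted p = 0.0529) and -0.76 (unadjusted p = 0.162), and without MSCT replicate 1 that of Ngfr was -0.77 (unadjusted p = 0.151). Without MSCT replicate 2 that of Cxcr4 was 0.87 (unadjusted p = 0.0672), and no carried antigen of this list was then higher with a p under 0.05.

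Of the antigens that MSCs should lack, 11 of 24 were measured and 6 were blank on all 4 arrays. Of the 11, 8 were higher and 3 lower. The median difference was 0.18, and it was -0.028 without control replicate 2 and 0.40 without control replicate 1. An unadjusted p under 0.05 was given to 2 of the 11, where 12.0% of all rows had such a p and 4.63% passed the screen. The 2 with an unadjusted p under 0.05 by limma both passed the screen, whereas by the methods' t-test 1 of the 11 passed it. Both code for class II histocompatibility molecules, which present peptides to T cells and are absent from resting MSCs. RT1-Ba read 552 and 508 in control replicates 1 and 2, against 1386 and 1943 in MSCT replicates 1 and 2, and both MSCT arrays exceeded both control arrays. Its difference was 1.63 (SE 0.25, unadjusted p = 0.00183, adjusted p = 0.260 by limma). For RT1-Da the difference was 1.01 (SE 0.30, unadjusted p = 0.0228, adjusted p = 0.344 by limma), and it was 0.69 (unadjusted p = 0.0669) without control replicate 2 and 0.87 (unadjusted p = 0.0929) without MSCT replicate 2.

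**Figure D4:**
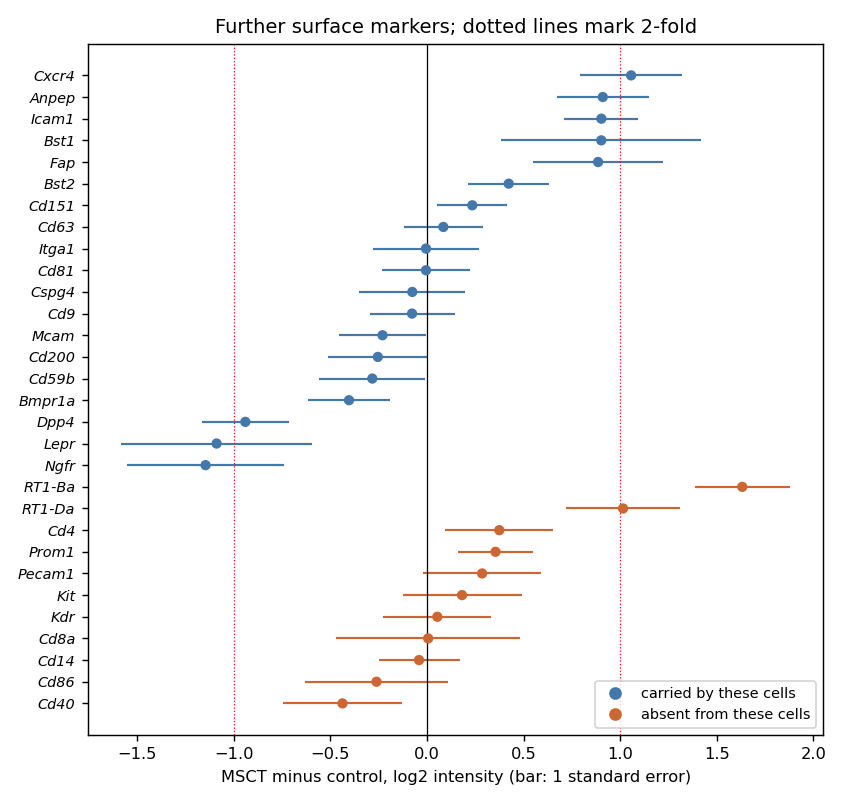
Difference in log2 intensity, MSCT minus control, for the measured antigens beyond the 10 genes (points) with 1 standard error from limma (bars), grouped as carried by MSCs (19 genes) and absent from them (11 genes). The medians are -0.0054 and 0.18, and RT1-Ba has the largest difference of these 30, at 1.63.

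Ligands, binding partners and signalling proteins of the 10 genes were listed next. Of 85 such genes, 50 were measured, of which 29 were higher. Their median difference was 0.089. An unadjusted p under 0.05 was given to 5 higher and 1 lower, and 3 higher and 1 lower passed the screen. These 6 of 50 stand beside 12.0% of all rows with such a p, so the partners' share was that of the background. The groups did not overlap in 18 of the 50, against 45.8% of all rows. The genes past the test are given below for their roles and not as a result about the partners.

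Among the partners of Cd44, 7 of 11 were measured and 2 had an unadjusted p under 0.05, both higher. Srgn codes for serglycin, a proteoglycan of the granules of blood cells that CD44 binds. It read 240.0 and 246 in control replicates 1 and 2, against 869 and 752 in MSCT replicates 1 and 2. The MSCT arrays were 3.33-fold brighter, with a difference of 1.73 (SE 0.19, unadjusted p = 0.000519, adjusted p = 0.257 by limma). Has1, an enzyme that makes hyaluronan, was higher by 0.82 (SE 0.23, unadjusted p = 0.0209, adjusted p = 0.339 by limma), and lost that p without control replicate 2 or without MSCT replicate 1, whereas Has2 and Has3 were blank on all 4 arrays. Ezr and Msn, which tie CD44 to actin, differed by 0.092 and 0.16 and did not pass the test.

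Among the partners of endoglin, 8 of 12 were measured. Tgfb1, a ligand of the receptor complex that endoglin joins, read 560.0 and 627 in control replicates 1 and 2, against 1143 and 1590 in MSCT replicates 1 and 2. It was higher on each MSCT array than on either control array, with a difference of 1.19 (SE 0.25, unadjusted p = 0.00653, adjusted p = 0.289 by limma). The receptors did not pass the test: the difference was 0.33 for Acvrl1, -0.64 for Tgfbr1 and -0.11 for Tgfbr2.

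For Pdgfrb, Nt5e and Itgb1 no partner had an unadjusted p under 0.05. Without control replicate 1 or without MSCT replicate 2, 1 of the 8 measured partners of Pdgfrb had one, as did 1 of the 9 of Nt5e without either MSCT array and 1 of the 6 of Itgb1 without control replicate 2. The Pdgfrb ligand Pdgfd differed by 0.70 (SE 0.39, unadjusted p = 0.138, adjusted p = 0.535 by limma). The partners of Nt5e are genes of adenosine supply and sensing. Neither of the 2 measured partners of Vcam1 or of Alcam, nor any of the 3 of Thy1, passed.

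Partners could be measured also for the 2 genes without a row. Ptprc codes for CD45, the phosphatase of leukocytes, and 6 of its 8 partners were measured. Ptprcap, the protein that associates with CD45 in lymphocytes, read 282 and 198 in control replicates 1 and 2, against 485 and 618 in MSCT replicates 1 and 2, with both MSCT arrays above both control arrays. Its difference was 1.21 (SE 0.28, unadjusted p = 0.00915, adjusted p = 0.306 by limma). Fyn, a kinase that CD45 acts on, was higher by 0.88 (SE 0.22, unadjusted p = 0.0120, adjusted p = 0.321 by limma), and its unadjusted p was above 0.05 without either MSCT array. Skap1, an adaptor protein of T cells, was lower, with a difference of -1.47 (SE 0.41, unadjusted p = 0.0186, adjusted p = 0.338 by limma), and of -1.26 without control replicate 1 (unadjusted p = 0.0906). Of the partners of Cd34 only Crkl was measured, with a difference of 0.16.

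Because other cells of the colon express the same antigens, marker lists of 11 cell types were read beside them. Markers of epithelium (9 measured of 11) and smooth muscle (6 of 9) had values on all arrays, with median differences of 0.12 and 0.017 (the latter -0.18 without control replicate 2) and no p under 0.05, and Epcam and Acta2 were among those measured. Of the lists with few measured genes, the 3 mast cell markers had a median of 0.18 (-0.041 without control replicate 2), with no p under 0.05. They ranged from -0.094 for Tpsab1 to 1.03 for Tpsb2, and 1 passed the screen with the replicate number as a block. This list does not hold Mcpt1 and Mcpt2, mast cell proteases that the paper names among its largest rises. The 2 mesothelial markers had a median of -0.41, with no p under 0.05.

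Most measured markers of leukocytes had a higher intensity in the MSCT group. Of 13 myeloid markers, 8 were measured, 7 were higher, and 6 had an unadjusted p under 0.05, with a median difference of 0.94. Among all rows 12.0% had such a p, 4.80% higher and 7.17% lower. Cd14 was the 1 that was not higher, with a difference of -0.041 (unadjusted p = 0.853 by limma). The difference was 1.58 (SE 0.23, unadjusted p = 0.00164, adjusted p = 0.260 by limma) for Tyrobp and 1.29 (SE 0.21, unadjusted p = 0.00265, adjusted p = 0.260 by limma) for Cd68. The summed intensity of the 8 was 12917 and 14199 in the control replicates, against 15960 and 18738 in the MSCT replicates. Cd14 was the largest part of that sum, at 9308 and 10814 in control replicates 1 and 2, against 8986 and 10578 in MSCT replicates 1 and 2. The defining marker Itgam was blank on all 4 arrays, and no row was matched to Itgax. Without control replicate 2, 3 of the 8 had such a p. Of 13 T and NK cell markers, 6 were measured, all with a difference above 0. Cd8a, Cd3g and Cd4 differed by only 0.0058, 0.13 and 0.37, with no unadjusted p under 0.05 by limma. The other 3 had such a p and passed the screen, Gzmb by 1.92, Zap70 by 1.89 and Nkg7 by 1.72, where 4.63% of all rows passed. These 3 were among the dimmest 25% of rows, without which 1 of the 6 was left, with no such p. The summed intensity of the 6 was 1041 and 891 in the control replicates, against 2028 and 1791 in the MSCT replicates. Zap70 lost that p without either control array, by the methods' t-test 0 of the 6 had one, and Cd3d, Cd2, Cd5, Cd8b and Cd247 were blank on all 4 arrays. Both measured markers of B and plasma cells were higher, Mzb1 by 1.26 and Xbp1 by 1.00. The part of leukocytes in the intensity of Eng, Cd44 and Icam1 was not tested.

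Of the 14 endothelial markers read beside Eng, 7 were measured and 6 of them were higher. The median difference was 0.37, but leaving out control replicate 2 turned it to -0.022, and leaving out control replicate 1 raised it to 0.61. An unadjusted p under 0.05 was given to 1 of the 7, where 12.0% of all rows had such a p. The 1 was Plvap, a protein of the windows of capillary endothelium, which read 425 and 347 in control replicates 1 and 2, against 1081 and 1222 in MSCT replicates 1 and 2. Its difference was 1.58 (SE 0.21, unadjusted p = 0.00116, adjusted p = 0.257 by limma). The defining markers Pecam1 and Kdr differed by 0.29 (unadjusted p = 0.396) and 0.053 (unadjusted p = 0.857) by limma. The summed intensity of the list was 7000 and 5988 in the control replicates, against 7466 and 8207 in the MSCT replicates. The part of endothelium in the intensity of Eng was not tested.

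Pericyte and fibroblast markers were read beside Pdgfrb. Of 7 pericyte markers, 6 were measured, 5 were lower and 1 higher, and none had an unadjusted p under 0.05. Their median difference was -0.11, and it turned to 0.088 without control replicate 1 and 0.013 without MSCT replicate 2. Rgs5 differed by -0.39, Cspg4 by -0.076 and Kcnj8 by 0.36. Their summed intensity was 35718 and 25686 in the control replicates, against 29374 and 24374 in the MSCT replicates. All 7 measured fibroblast markers of 13 had a difference above 0, with a median of 0.36 (0.61 without control replicate 1). The difference between the lists was not tested. Of these Col1a2, a chain of collagen I, had an unadjusted p under 0.05, with a difference of 0.62 (SE 0.22, unadjusted p = 0.0412, adjusted p = 0.399 by limma), which held without control replicate 1 and not without any of the other 3 arrays. Dcn and Lum differed by 0.0072 and 0.028. Thus 1 of the 7 fibroblast markers had an unadjusted p under 0.05, where 12.0% of all rows had such a p. The summed intensity of the fibroblast list was 41243 and 27222 in the control replicates, against 44824 and 46419 in the MSCT replicates, with control replicate 2 the lowest array, as it was for Pdgfrb. The part of either cell type in the intensity of Pdgfrb was not tested.

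Markers of enteric neurons and glia, cells that also carry Thy1, Ngfr and Alcam, were lower. Of 10 measured, 8 were lower and 5 of them had an unadjusted p under 0.05, with a median difference of -0.57. Among all rows 12.0% had such a p, 4.80% higher and 7.17% lower. By the methods' t-test 2 of the 10 had such a p, both lower, and 0 passed the screen. Stmn2 differed by -1.00 (SE 0.23, unadjusted p = 0.0103, adjusted p = 0.311 by limma) and Elavl4, which passed the screen, by -1.06 (SE 0.33, unadjusted p = 0.0262, adjusted p = 0.354 by limma). Elavl4 kept an unadjusted p under 0.05 only without control replicate 2, and its difference was -0.67 without control replicate 1. Their summed intensity was 14260 and 13099 in the control replicates, against 9131 and 9661 in the MSCT replicates. Without control replicate 1, and likewise without either MSCT array, 1 marker had a p under 0.05 and was lower. The part of neurons and glia in the intensity of Thy1 and Ngfr was not tested.

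**Figure D5:**
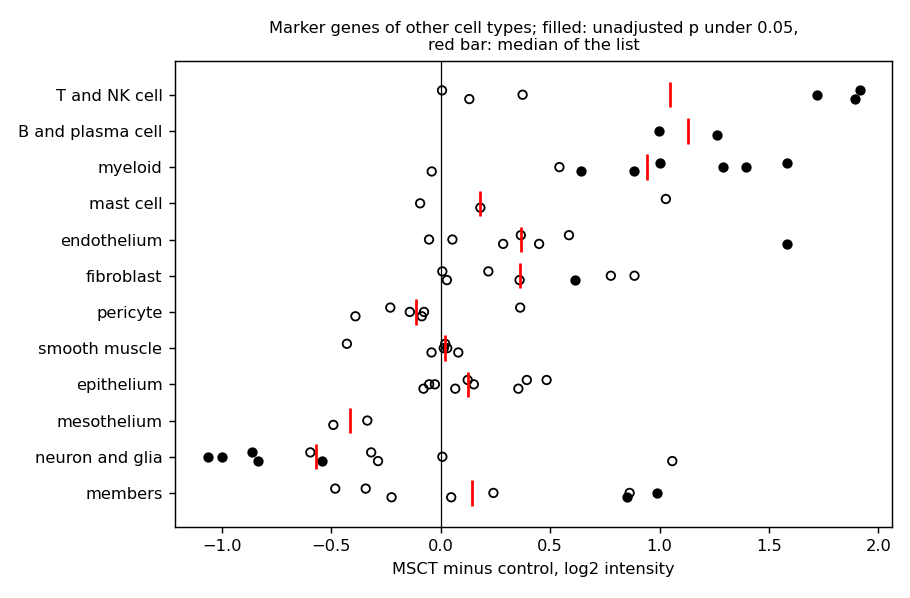
Difference in log2 intensity, MSCT minus control, of each measured marker gene by cell type and of the 8 members (points, filled where the unadjusted p is under 0.05), with the median of each list as a bar. Medians are 1.05 for T and NK cells, 0.94 for myeloid cells and -0.57 for neurons and glia, against -0.019 over all rows.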

How the data were processed

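Colon RNA of 2 control and 2 MSCT rats was hybridized to 1 one-color (Cy3) NimbleGen array each, scanned with a GenePix scanner and extracted with NimbleScan. The authors deposited 1 linear intensity per RefSeq transcript and array. The submitters' processing notes name RMA. Background correction, the rule for blank rows and the combination of probes are not given in the sources used here. The table has 26420 rows, of which 18350 were complete and 8070 blank throughout. The number of value columns left without a sample was 0.

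The log2 of the deposited intensities was taken as it stood, and no pseudocount, scaling or filter was applied. limma 3.58.1 in R 4.3.3 (lmFit, eBayes) compared MSCT with control on all 18350 rows, with Benjamini-Hochberg adjustment over all of them, and was tested on simulated data. The study's statistics name one-way analysis of variance, but no test is named for the chips. For 2 groups that analysis is a t-test, here called the methods' t-test. With it 388 rows passed the screen, the same number as the genes that the paper reports, against 850 by limma. Rows were named by unversioned accession through the RefSeq gene table of GRCr8, 7004 of 7292 NM rows and 58 of 11058 XM rows. Promoters came from RefSeq (GRCr8), with an entry for 8 of the 10 genes and none for Thy1 and Pdgfrb. Tables and plots were made in pandas 2.3.3 and matplotlib 3.10.9 (Python 3.11.15). Named are all members, Icam1, and from each further list the genes past the screen and the 2 with the smallest unadjusted p under 0.05. Other genes, and the motifs, were chosen with the values in view. The members and lists were chosen with earlier results of these data known. Alternatives were quantile normalization, equal array medians, leaving out dim rows, an intensity-dependent variance, the methods' t-test, the replicate block, leaving out each array and linear group means. Replicates are separate rats.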

Additional observations from a re-analysis of the deposited data

How the results depend on the processing

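Over the 8 members and their alternatives, 71 of 82 values with a p kept their direction and their side of an unadjusted p of 0.05, 6 lost the call, 4 gained it and 1 reversed: Alcam, from 0.048 to -0.067 without MSCT replicate 2 (0.16 at the other end, without MSCT replicate 1). The cause was not tested. The 8 differences of linear group means have no p and moved by less than 1 SD. No member had an adjusted p under 0.05 under any alternative, and the smallest was 0.130 without the dimmest 25% of rows, which dropped Vcam1. Members past the screen were 0 as reported and 1 after quantile normalization or with equal array medians, and 0 to 1 on leaving out single arrays. Members with an unadjusted p under 0.05 were 2 as reported, 3 after quantile normalization, with equal array medians and without the dimmest 25% of rows, 1 with a variance that depends on intensity, 1 by the methods' t-test, 0 without the dimmest 50% of rows (3 members tested) and 1 to 2 with each array left out. With the replicate block the count was 1, since Cd44 then had an unadjusted p = 0.0682. The replicate numbers are not known to pair the rats (correlation of same-number deviations 0.234 over all rows, 2 pairs). Rows past the screen were 850 as reported, 251 without the dimmest 50% of rows, 388 by the methods' t-test, 971 with the replicate block, and 934 to 1565 with each array left out, which leaves a lone array assumed to vary like the other group. Rows with an adjusted p under 0.05 were 4 without the dimmest 25% of rows, 247 without the dimmest 50% and 387 with a variance that depends on intensity, and 0 in the other settings. The alternative of another row per gene was not run, since each member has 1 row. Settings for the lists and other named genes were added after the data were seen. None of the values of those named genes reversed.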
